A study of Mus musculus with 24 samples.

Results

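Histone and DNA modifying enzymes write and remove the chemical marks on chromatin. The members described here were every gene in the deposited table whose symbol begins with Kdm, Kat, Setd, Mll or Dnmt followed by a number, or is a numbered Hdac, Sirt1 to Sirt7, Ezh1 or Ezh2, or Tet1 to Tet3. That gave 60 of 14027 rows. The rule reads symbols and no expression value, although earlier results of these data were known when it was set. Of these, 58 are annotated as protein-coding genes. Kat2b-ps is a processed pseudogene, whose reads can be mistaken for those of Kat2b, and Hdac4 has 2 entries, of which the second carries an identifier that the annotation used here does not hold. Older symbols are printed as deposited: Mll1 is now Kmt2a, Mll2 is Kmt2d, Mll3 is Kmt2c, Mll5 is Kmt2e and Setd8 is Kmt5a.

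RNA was sequenced from alpha cells, the glucagon-secreting cells of the pancreatic islet, and from beta cells, which secrete insulin. Both came from a mouse strain that carries 3 reporters, with islets taken at zeitgeber times (ZT, hours in the light cycle) 0, 4, 8, 12, 16 and 20. Each cell type and time had 2 libraries, so there were 12 alpha and 12 beta libraries in all, with no other genotype and no treatment. Nothing in the labels tells if the paired libraries were separate animals, so each p-value covers library-to-library spread alone, possibly of technical origin. Neither the age of the mice nor the cells that express each reporter is named.

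Histone methyltransferases add methyl groups to lysines, with marks on lysine 4 of histone H3 (H3K4) found at active promoters and enhancers and marks on lysine 27 at silenced genes, and lysine demethylases of the flavin-dependent and JmjC families take them off. Acetyltransferases open chromatin and are opposed by zinc-dependent deacetylases and by the NAD-dependent sirtuins, while DNA methyltransferases place methyl groups on cytosine that TET dioxygenases oxidise. Several of these enzymes work with the circadian clock: MLL1 and KDM5A act with CLOCK and BMAL1, HDAC3 is recruited by REV-ERB alpha through its NCoR corepressor, and SIRT1 deacetylates clock proteins.

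Between 4944982 and 12364190 reads lay behind each library, with a median of 206 reads per gene and library. The hormone genes matched the labels: glucagon took 16% to 24.2% of alpha reads and at most 0.281% of beta reads, and the insulin genes took 16.4% to 26.0% of beta reads and at most 0.506% of alpha reads. Summed markers of delta cells ran from 2512.5 to 5177.4 RPKM (reads scaled to gene length and library size) in alpha and 644 to 1421 in beta libraries. Those of PP cells ran from 27826 to 59540 and 359 to 1730 RPKM, all 4 delta and all 3 PP markers being higher in alpha cells. Libraries of the same time point could stand apart, most of all at ZT0, where the differences between replicates over all genes had an SD of 0.55 (alpha) and 0.65 (beta) on the log2 scale, against 0.33 to 0.51 at the other times.

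The 1st question was which enzymes differ between alpha and beta cells. Most of them differed by little: 2 of the 60 members, Hdac7 and Tet1, were called at a fold of at least 2 and an adjusted p under 0.05 in limma, both higher in alpha cells. Over all 14027 genes that rule called 20.7%, with 11.2% higher in alpha and 9.54% higher in beta cells, so the members' share of 3.33% lay below the background. Without the fold threshold 43 members differed (71.7%, against 74.9% of all genes), 30 of them higher in alpha cells (50%, background 37.8%) and 13 higher in beta cells (21.7%, background 37.2%). The median size of the log2 difference was 0.31 over the members and 0.42 over all genes, and the signed median was 0.15 against 0.01. In these bulk samples, fewer cells of a type and less RNA per cell cannot be told apart.

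**Figure D1:**
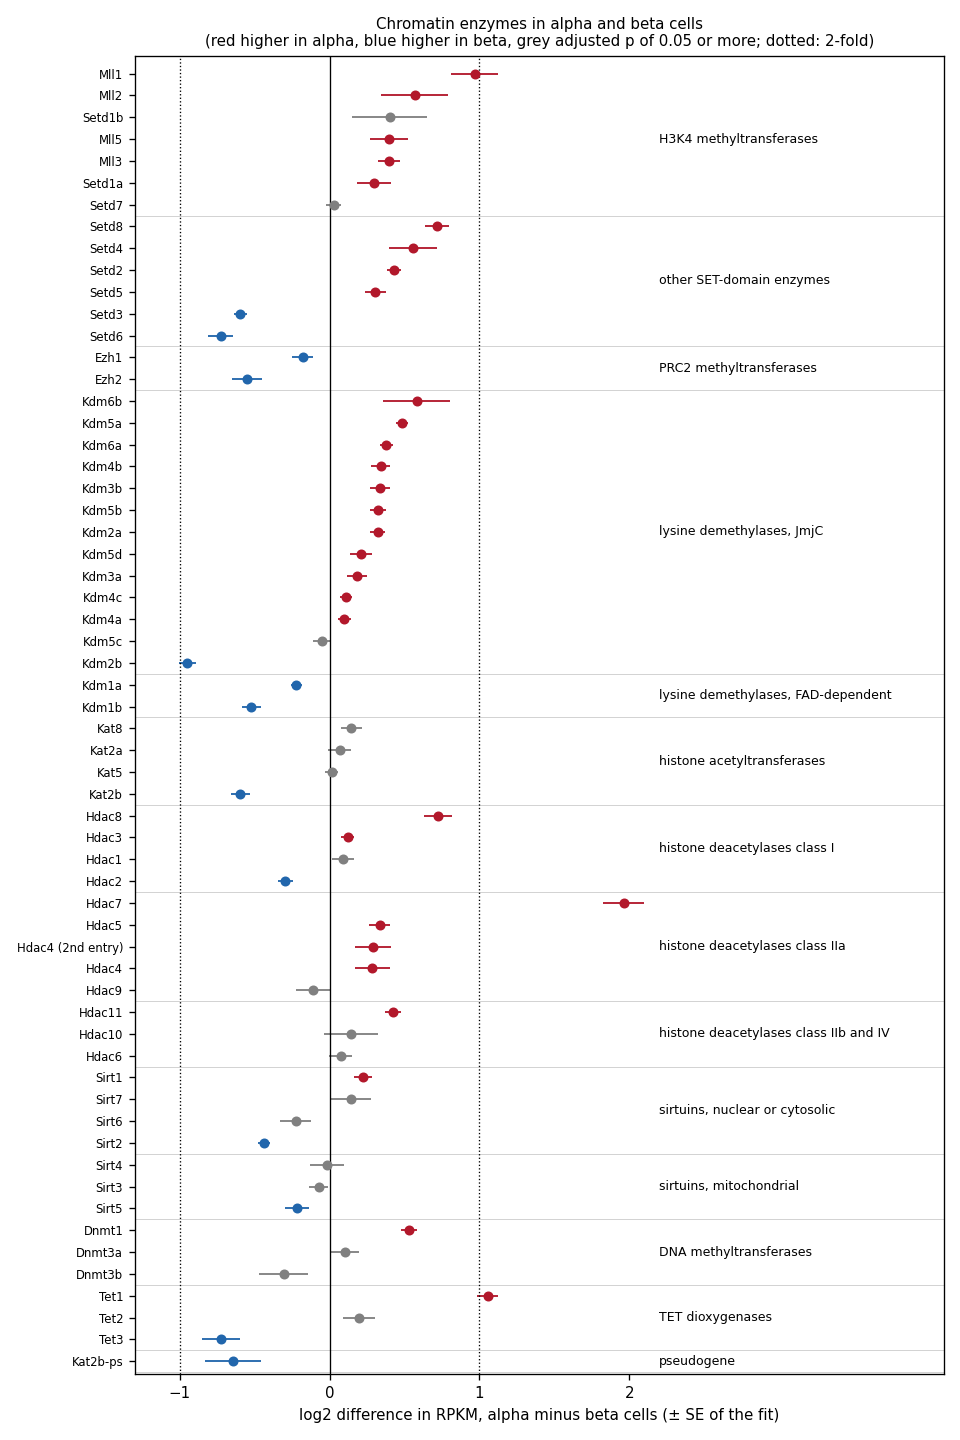
Log2 difference in RPKM (alpha minus beta) of each of the 60 members with its standard error from limma, ordered within enzyme classes. Hdac7 at 1.96 and Tet1 at 1.05 lie beyond the fold threshold of 2, and Kdm2b at -0.95 is the lowest.

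Hdac7 and Tet1 separated the cell types in every library. Hdac7, on chromosome 15 (97792664 to 97844502, GRCm38), encodes a class IIa deacetylase that binds MEF2 factors. Its level ran from 3.97 to 7.25 RPKM in alpha libraries (median 4.96) and from 0.732 to 1.99 RPKM in beta libraries (median 1.35). The lowest alpha library was thus above the highest beta library, and the difference was 3.9-fold (log2 1.96, SE 0.138, limma adjusted p = 1.1e-11), in 1 direction at 6 of 6 time points. Hdac7 is also known from endothelial cells, and the summed endothelial markers (3 of 4 measured) were at 0.412 to 2.12 RPKM in alpha and 0.317 to 1.67 RPKM in beta libraries. Markers of 4 other cell types were higher in alpha cells: delta and PP as above, all 4 stromal markers (summed 4.21 to 6.70 against 0.173 to 0.869 RPKM) and both measured duct markers (25.6 to 78.6 against 5.03 to 19.2 RPKM). Their part in this and the other differences between cell types was not tested.

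Tet1 lies on chromosome 10 (62804570 to 62908996) and encodes a dioxygenase that turns 5-methylcytosine into 5-hydroxymethylcytosine. It ran from 2.77 to 5.40 RPKM in alpha libraries (median 3.58) and from 1.45 to 2.04 RPKM in beta libraries (median 1.70). Again no library overlapped, and the difference was 2.08-fold (log2 1.05, SE 0.0697, limma adjusted p = 3.8e-12). On log2(RPKM + 1) it was 0.76, below the fold threshold.

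The other TET genes did not follow Tet1. Tet3, which has the same catalytic activity, was higher in beta cells, at 5.34 ± 1.83 RPKM against 3.17 ± 0.844 RPKM in alpha cells (SD, n = 12 each), a 1.65-fold difference (limma adjusted p = 1.8e-05) with overlapping libraries. Tet2, the TET gene with the highest level, was at 9.58 ± 2.28 RPKM in alpha and 8.43 ± 2.25 in beta cells, a log2 difference of 0.20 (SE 0.109) that did not pass (limma adjusted p = 0.11). Summed TET RPKM was close in both, at 16.4 ± 3.27 in alpha and 15.5 ± 4.06 in beta libraries, but its make-up was not. Tet1 made up 22.8% ± 4.2 of the sum in alpha and 11.9% ± 2.89 in beta libraries, and Tet3 19.1% ± 2.01 and 33.9% ± 3.42. The Tet3 shares did not overlap between the cell types, with 21.4% the highest in alpha and 29.2% the lowest in beta libraries, and these shares are given without a test.

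**Figure D2:**
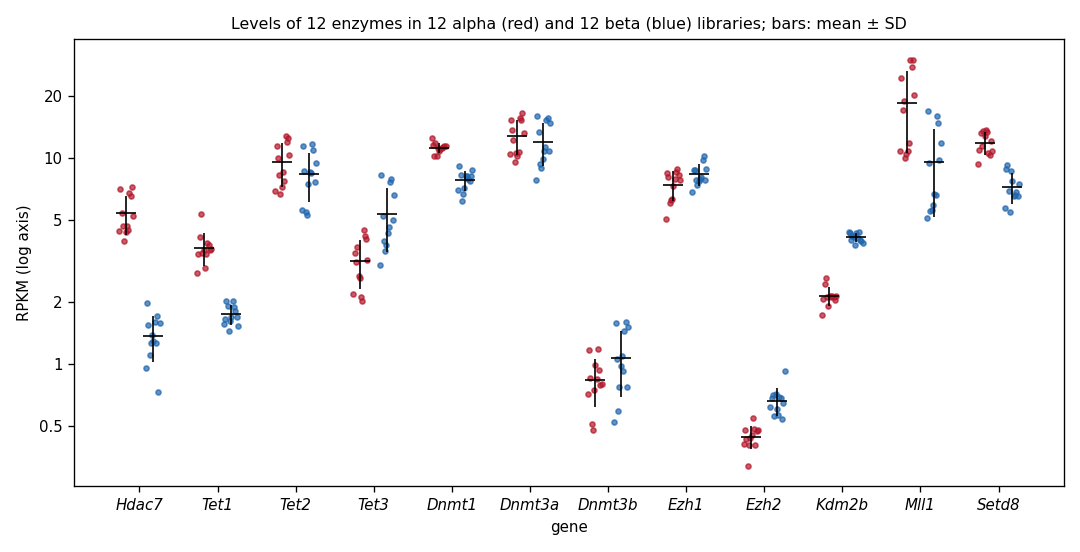
RPKM (log axis) of 12 members in the 12 alpha and 12 beta libraries, 1 point per library. Hdac7, Tet1, Dnmt1, Kdm2b and Setd8 have no overlap between the cell types, whereas Dnmt3a and Tet2 overlap over most of their range.

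Of the DNA methyltransferases, only Dnmt1, which copies methylation to the new strand after replication, differed. It was at 11.3 ± 0.638 RPKM in alpha and 7.82 ± 0.869 in beta cells, a 1.45-fold difference (limma adjusted p = 4.1e-09), with every alpha library (lowest 10.3) above every beta library (highest 9.23). The de novo enzyme Dnmt3a was at 12.8 ± 2.5 and 12 ± 2.88 RPKM (log2 0.10, SE 0.0948, limma adjusted p = 0.32). Dnmt3b, the other de novo enzyme, was near the low end of the table at 0.839 ± 0.219 RPKM in alpha and 1.07 ± 0.383 in beta cells (limma adjusted p = 0.097). Summed proliferation markers ran from 1.72 to 3.55 RPKM in alpha and 4.06 to 8.45 RPKM in beta libraries, with 1 of the 4 measured passing as higher in beta cells, and their part in the result was not tested.

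Both H3K27 methyltransferases were higher in beta cells. Ezh2, the form of dividing cells, was low in both types, at 0.445 ± 0.0573 RPKM in alpha and 0.666 ± 0.103 in beta cells (1.47-fold, limma adjusted p = 3.3e-05), with overlap between 0.545 and 0.552 RPKM. Ezh1, which takes over in resting cells, was at 7.44 ± 1.21 and 8.37 ± 0.981 RPKM (1.13-fold, limma adjusted p = 0.024). Ezh1 therefore made up 94.3% of the summed Ezh RPKM in alpha and 92.6% in beta cells. The summed proliferation markers, given above, were also higher in beta libraries, with 1 of 4 passing, and their part in the result was not tested.

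The 7 H3K4 methyltransferases leaned to alpha cells, with 5 higher there (37.8% of all genes) and 0 higher in beta cells (37.2% of all genes). Their median log2 difference was 0.40. Mll1, the founding member of the family, was at 18.6 ± 7.92 RPKM in alpha and 9.56 ± 4.38 in beta cells (1.96-fold, log2 0.97, SE 0.156, limma adjusted p = 9.4e-06), with wide ranges of 10 to 30.1 and 5.16 to 16.9 RPKM that overlap. Without replicate 1 of the ZT0 alpha cells, or without replicate 2 of the ZT0 beta cells, Mll1 passed the fold threshold and 3 members were called. Setd7, a monomethyltransferase enriched in islets and the H3K4 enzyme with the highest mean over all 24 libraries, was at 17.3 and 16.9 RPKM and did not pass (log2 0.03, limma adjusted p = 0.61). Setd1b, which did not pass either, spread over more than the difference between cell types within each, from 1.2 to 7 RPKM in alpha and 0.786 to 6.90 RPKM in beta libraries.

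Of the 6 other SET-domain enzymes, alpha cells had more of 4 (37.8% of all genes) and beta cells more of 2 (37.2% of all genes). Setd8, which monomethylates lysine 20 of histone H4, was at 11.9 ± 1.48 RPKM in alpha and 7.25 ± 1.21 in beta cells (1.65-fold, limma adjusted p = 4.2e-08), and Setd2, the enzyme that trimethylates H3K36, at 17.7 ± 2.25 and 13.1 ± 1.14 RPKM (1.35-fold, limma adjusted p = 2.2e-08). The pair higher in beta cells is known for substrates other than histones. Setd3, an actin histidine methyltransferase, was at 29.2 ± 2.56 RPKM in beta and 19.3 ± 1.26 in alpha cells (1.51-fold, limma adjusted p = 2.5e-11). Setd6, which methylates the NF-kB subunit RelA, was at 7.05 ± 0.838 and 4.26 ± 0.788 RPKM (1.65-fold, limma adjusted p = 6.9e-08). None of these 4 overlapped between the cell types, as was so for 26% of all genes. Setd4 and Setd5, the others higher in alpha cells, did overlap.

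JmjC demethylases were the largest class, with 13 measured. Of these, 11 were higher in alpha cells (37.8% of all genes) and 1 lower (37.2% of all genes). That 1 was Kdm2b, an H3K36 demethylase that brings a Polycomb complex to CpG islands, at 4.14 ± 0.205 RPKM in beta and 2.14 ± 0.225 in alpha cells (1.93-fold, limma adjusted p = 6.8e-13). Its ranges, 3.81 to 4.41 and 1.74 to 2.64 RPKM, were narrow and apart. The closely related Kdm2a went the other way, at 15.3 RPKM in alpha and 12.3 in beta cells (1.25-fold, limma adjusted p = 3e-06). Kdm5a, an H3K4 demethylase, was at 12.5 ± 0.943 RPKM in alpha and 8.95 ± 0.638 in beta cells (1.40-fold, limma adjusted p = 3.6e-10), and the H3K27 demethylase Kdm6a at 8.72 ± 0.649 and 6.70 ± 0.507 RPKM (1.30-fold, limma adjusted p = 4.5e-08), both without overlap. Kdm5c, the X-linked H3K4 demethylase and the JmjC gene with the highest mean over all 24 libraries, did not pass, at 20.6 and 21.5 RPKM (limma adjusted p = 0.45). The flavin-dependent enzymes, both of which demethylate H3K4, were higher in beta cells: Kdm1a by 1.17-fold (26.2 against 22.4 RPKM, limma adjusted p = 7.7e-06) and Kdm1b by 1.44-fold (6.12 against 4.25 RPKM, limma adjusted p = 1.2e-07).

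Acetyltransferases differed in 1 of 4 cases, against 74.9% of all genes. Kat2b, also called PCAF, was at 20.3 ± 2.43 RPKM in beta and 13.4 ± 1.23 in alpha cells (1.51-fold, limma adjusted p = 3e-08), with 16.6 RPKM the lowest beta and 14.4 RPKM the highest alpha library. The Kat2b-ps pseudogene differed the same way at 0.590 and 0.348 RPKM, on as few as 3 reads, and reads shared between these near copies cannot be told apart here. Kat5, or TIP60, was at 18.7 and 18.5 RPKM (log2 0.02, limma adjusted p = 0.76).

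Outside Hdac7, the deacetylases differed by less than 2-fold. Of class I, Hdac8 was 1.65-fold higher in alpha cells (1.92 against 1.16 RPKM, limma adjusted p = 3.4e-07), Hdac3, the catalytic subunit of NCoR complexes, 1.09-fold higher in alpha cells (13.8 against 12.7 RPKM, limma adjusted p = 0.02), and Hdac2 1.23-fold higher in beta cells (17.9 against 14.6 RPKM, limma adjusted p = 8.7e-06). Hdac6, a cytoplasmic tubulin deacetylase, had the highest level of all members, at 34.4 ± 3.89 RPKM in alpha and 32.7 ± 4.43 in beta cells (log2 0.08, limma adjusted p = 0.38). Class IIa RPKM was summed over Hdac5, Hdac7, Hdac9 and the first Hdac4 entry, without the second. Of this sum, Hdac7 made up 18.0% in alpha and 6.10% in beta cells. Hdac5, which shuttles out of the nucleus when phosphorylated, made up 53.7% and 57.1%. Sirt2, mainly a cytoplasmic deacetylase, was the sirtuin with the clearest separation, at 12.3 ± 0.744 RPKM in beta and 9.07 ± 0.405 in alpha cells (1.35-fold, limma adjusted p = 2.1e-09) with no overlap. Sirt1 was 1.17-fold higher in alpha cells (4.87 ± 0.450 against 4.22 ± 0.773 RPKM, limma adjusted p = 0.0019), and mitochondrial Sirt3 did not pass at 7.75 and 8.12 RPKM (limma adjusted p = 0.3). Over all classes, 13 members (21.7%) had 12 alpha libraries all above or all below the 12 of beta cells, against 26% of all genes.

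The 2nd question was whether these enzymes follow a daily rhythm, tested as a 24 h cosine with an F-test in limma. In alpha cells 4 members (6.67%) were called at an adjusted p under 0.05, against 9.66% of all genes, and in beta cells 13 members (21.7%), against 16% of all genes. At an unadjusted p under 0.05 there were 23 members in alpha cells (29.7% of all genes) and 28 in beta cells (34.3% of all genes). The alpha genes were Hdac11, Hdac9, Hdac3 and Mll3. The beta genes were Hdac9, Setd1b, Mll3, Kdm5c, Hdac11, Hdac5, Sirt1, Kat2b, Mll5, Setd5, Mll2, Kat2a and Hdac4. A gene called in only 1 cell type is not thereby shown to differ: the test of the difference itself called 0 members in limma (0.0713% of all genes), with 5 members at an unadjusted p under 0.05 (7.66% of all genes), and limma voom on the recovered reads also called 0.

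These counts rested on few libraries. The alpha count was 12 without replicate 1 of ZT0 alpha, 10 without replicate 1 of ZT4 alpha and 9 without replicate 2 of ZT0 beta. Over all genes these fits called 1899, 2252 and 1879, against 1355 in the main fit. The alpha count was 1 or 2 without any single alpha library of ZT8, ZT12 or ZT16 or replicate 1 of ZT20. All genes called were then 348 to 879. In beta cells the count was 21 without replicate 2 of ZT0 (3100 of all genes, against 2241 in the main fit). It was from 2 to 7 without replicate 2 of ZT4, either library of ZT8 or ZT16, replicate 1 of ZT12 or replicate 2 of ZT20. All genes called were then 1077 to 1664. Over 34 alternatives the alpha call of Hdac11 and the beta call of Hdac9 held in each. Calls were lost in 10 for Hdac3, in 16 for Mll3 and in 7 for Hdac9 in alpha cells. Among the beta genes they were lost in 3 for Hdac11, 5 each for Mll3, Hdac5 and Kdm5c, 6 each for Setd1b and Sirt1, and 7 to 26 for the others.

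A single cosine common to both cell types used all 24 libraries and called 29 members (48.3%), against 38.8% of all genes. Of these, 22 peaked in the dark, from ZT12 to ZT24 (36.7%, background 19.2%), and 7 in the light, from ZT0 to ZT12 (11.7%, background 19.7%). When the alpha and beta library of the same time and replicate number were averaged first, which leaves 12 values, 9 members were called (15.0%, background 12.5%). These were Hdac9, Hdac11, Mll3, Setd1b, Mll2, Mll5, Setd5, Kat2a and the second Hdac4 entry.

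**Figure D3:**
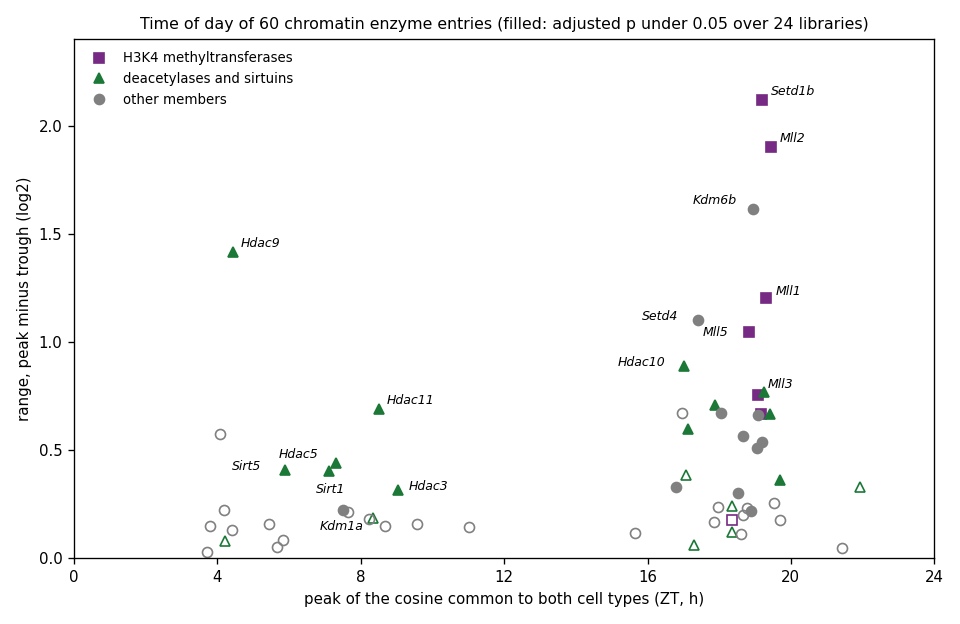
Fitted peak time (ZT, hours) and fitted peak-to-trough range (log2) of the cosine common to both cell types for the 60 members, with called members marked. The called members gather near ZT19 and, fewer of them, between ZT4 and ZT9.

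The dark-phase group held most of the H3K4 methyltransferases: 6 of the 7 were called, all with a peak in the dark (19.2% of all genes), and the 4 that held with 12 values (12.5% of all genes) were Setd1b, Mll2, Mll3 and Mll5. Setd1b, on chromosome 5 (123142193 to 123168629), is the catalytic subunit of a SET1 complex that trimethylates H3K4 at promoters. In beta cells its replicates were at 1.2 and 6.9 RPKM at ZT0, 1.36 and 0.786 at ZT4, 1.41 and 1.12 at ZT8, 1.02 and 1.12 at ZT12, 5.58 and 5.95 at ZT16, and 2.93 and 3.37 at ZT20. In alpha cells they were at 1.75 and 5.36, 1.40 and 3.52, 1.51 and 1.2, 1.23 and 1.84, 6.42 and 6.28, and 7.00 and 2.86 RPKM at the same times. Both ZT16 libraries were thus high in each cell type and both ZT8 and ZT12 libraries low, while the ZT0 replicates disagreed by several fold. The common cosine of Setd1b peaked at ZT19.2 ± 0.7 h (SE) with a 4.35-fold range (limma adjusted p = 0.0014, or 0.034 with 12 values).

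Mll2, whose product monomethylates H3K4 at enhancers, had the same course. In alpha cells its replicates were at 7.60 and 21.4 RPKM at ZT0, 7.82 and 15.8 at ZT4, 5.70 and 5.85 at ZT8, 5.80 and 6.23 at ZT12, 25.8 and 23.9 at ZT16, and 27.3 and 13.5 at ZT20. In beta cells they were at 4.2 and 23.2, 5.90 and 4.06, 4.70 and 4.52, 4.59 and 4.66, 19.4 and 18.6, and 10.8 and 11.6 RPKM. The step from ZT12 to ZT16 was seen in all 4 libraries of each time, and the fitted peak was at ZT19.5 ± 0.7 h with a 3.74-fold range (limma adjusted p = 0.0019, or 0.043 with 12 values). Its enhancer partner Mll3 had a 1.69-fold range with a peak at ZT19.1 ± 0.7 h (limma adjusted p = 0.00082, or 0.029). Mll5, which reads H3K4 methylation and lacks clear activity of its own, had a 2.06-fold range and a peak at ZT18.8 ± 0.8 h (limma adjusted p = 0.0026, or 0.04). Mll1 had a 2.3-fold range with a peak at ZT19.3 ± 0.8 h (limma adjusted p = 0.0035), and did not pass with 12 values (limma adjusted p = 0.056).

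**Figure D4:**
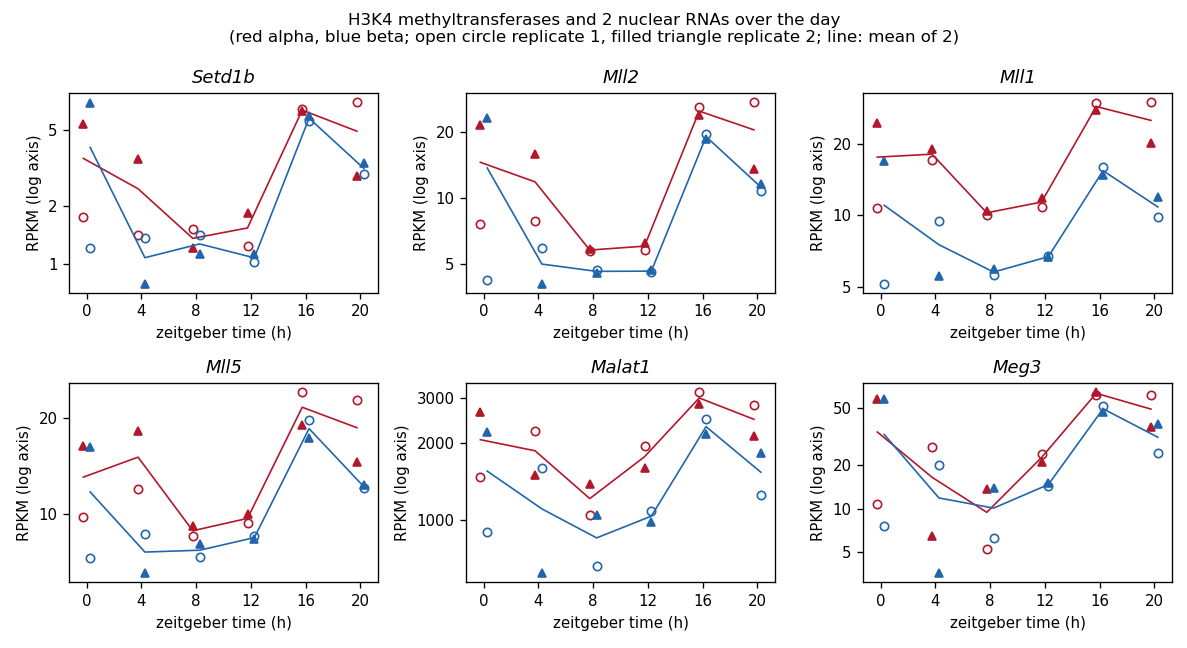
RPKM at each zeitgeber time for Setd1b, Mll2, Mll1 and Mll5 and for the nuclear RNAs Malat1 and Meg3, 1 point per library with lines through the means of 2. Both ZT16 libraries are high in each cell type, and replicate 2 of ZT0 lies above replicate 1, in these enzymes and in Malat1 and Meg3.

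The libraries that were high in these methyltransferases were also high in long nuclear RNAs. In beta cells the 4 libraries with the highest Setd1b (replicate 2 of ZT0, both of ZT16 and replicate 2 of ZT20) were the same 4 as for Mll1, Mll2, Mll3, Mll5, Setd1a and Kdm6b, and as for the noncoding RNAs Malat1, Neat1 and Meg3. In alpha cells the top 4 of Setd1b, Mll1, Mll2 and Setd1a (replicate 2 of ZT0, both of ZT16 and replicate 1 of ZT20) were those of the same 3 noncoding RNAs, and Mll3, Mll5 and Kdm6b shared 3 of them. Meg3 was at 51.5 and 46.8 RPKM in the ZT16 beta libraries, 57.8 in replicate 2 and 7.58 in replicate 1 of ZT0, and Malat1 at 2468, 2157, 2207 and 903 RPKM in the same libraries. The same 4 beta libraries had the lowest insulin shares of the 12, at 16.4% to 17.5% of reads, and the 4 alpha libraries were among the 5 with the lowest glucagon shares, at 16% to 17.9%. The part of these library differences in the result was not tested. With both ZT0 libraries numbered 2 left out, an alternative chosen after seeing the data, 8 members were called in alpha cells and 20 in beta cells. The calls over all genes went from 1355 to 1893 (alpha) and from 2241 to 3132 (beta).

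Other members that peaked in the dark had smaller ranges. Setd5, a SET-domain protein found with deacetylase complexes, had a 1.48-fold range with a peak at ZT18.7 ± 0.8 h (limma adjusted p = 0.002, or 0.043 with 12 values). Kat2a, the GCN5 acetyltransferase of the SAGA complex, had a 1.45-fold range and a peak at ZT19.2 ± 0.8 h (limma adjusted p = 0.0039, or 0.049). The class IIa deacetylase Hdac4 had a 1.71-fold range with a peak at ZT19.3 ± 0.9 h (limma adjusted p = 0.0058, or 0.055), and its second entry gave 1.59-fold and ZT19.4 ± 1.0 h (limma adjusted p = 0.013, or 0.042). Setd4, with low reads at 1.07 RPKM in alpha and 0.712 in beta cells, had a 2.15-fold range and a peak at ZT17.4 ± 0.8 h (limma adjusted p = 0.0034, or 0.064). Of the JmjC demethylases 2 of 13 were called (38.8% of all genes), Kdm2a and the H3K27 demethylase Kdm6b. Kdm6b had a 3.06-fold range and a peak at ZT18.9 ± 0.8 h (limma adjusted p = 0.005, or 0.059). The class median of the fitted range was 0.15 on the log2 scale for the JmjC enzymes and 1.05 for the H3K4 methyltransferases, against 0.33 over all genes.

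The members that peaked in the light were Hdac9, Hdac11, Hdac3, Hdac5, Sirt1, Sirt5 and Kdm1a, of which 6 are deacylases and 1 a demethylase. Deacylases were not confined to the light: Hdac1, Hdac10, both Hdac4 entries, Sirt4 and Sirt7 were called with peaks from ZT17.0 to ZT19.7. Hdac9, on chromosome 12 (34047580 to 34917095), encodes a class IIa deacetylase with weak activity of its own that works with MEF2 factors and corepressors. In beta cells its replicates were at 3.98 and 3.58 RPKM at ZT0, 7.59 and 7.54 at ZT4, 3.68 and 5.69 at ZT8, 2.43 and 3.16 at ZT12, 1.73 and 1.26 at ZT16, and 2.41 and 3.22 at ZT20. In alpha cells they were at 3.19 and 2.81, 4.28 and 4.57, 4.36 and 3.62, 3.06 and 2.69, 2.19 and 1.82, and 3.47 and 2.82 RPKM. Here the ZT0 replicates were close, and both ZT16 libraries were the lowest of each cell type. The fitted range was 3.83-fold in beta cells with a peak at ZT4.3 ± 0.4 h (limma adjusted p = 3.8e-05) and 1.87-fold in alpha cells with a peak at ZT4.7 ± 0.9 h (limma adjusted p = 0.034). The beta range was the larger of these, but the difference did not pass (limma adjusted p = 0.4).

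**Figure D5:**
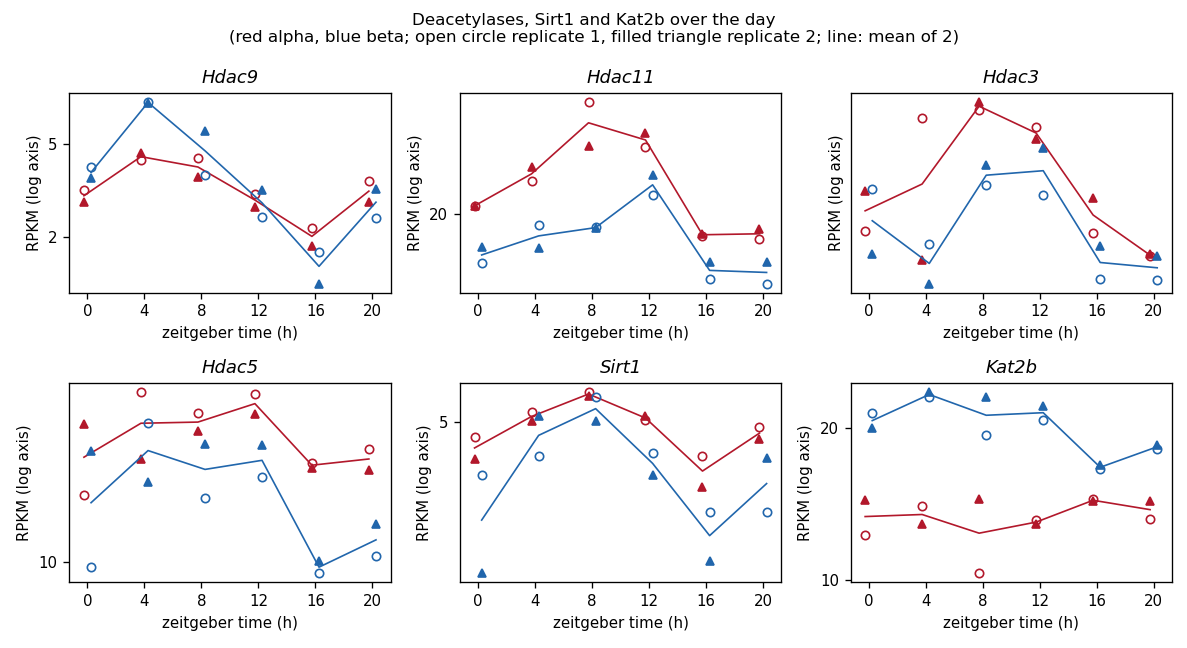
RPKM at each zeitgeber time for Hdac9, Hdac11, Hdac3, Hdac5, Sirt1 and Kat2b in alpha and beta cells, 1 point per library with lines through the means of 2. Hdac9 is highest at ZT4 in beta cells, and Hdac11 is highest at ZT8 in alpha and at ZT12 in beta cells.

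Hdac11, on chromosome 6 (91156665 to 91174692), is the class IV deacetylase and removes long fatty acyl groups. Its alpha replicates were at 20.9 and 20.9 RPKM at ZT0, 23.8 and 25.7 at ZT4, 36.1 and 28.7 at ZT8, 28.4 and 30.7 at ZT12, 17.8 and 18.1 at ZT16, and 17.6 and 18.5 at ZT20. The beta replicates were at 15.5 and 16.8, 18.9 and 16.8, 18.7 and 18.6, 22.1 and 24.6, 14.2 and 15.6, and 13.9 and 15.6 RPKM. The 4 alpha libraries of ZT8 and ZT12 lay above the other 8, and in beta cells both ZT12 libraries were the highest. The range was 1.83-fold in alpha cells with a peak at ZT8.1 ± 0.6 h (limma adjusted p = 0.0011) and 1.43-fold in beta cells with a peak at ZT9.2 ± 1.0 h (limma adjusted p = 0.029). The difference of the curves did not pass (limma adjusted p = 0.8).

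Smaller daytime courses were seen in Hdac3, Hdac5 and Sirt1. Hdac3 had a 1.31-fold range in alpha cells with a peak at ZT8.8 ± 1.0 h (limma adjusted p = 0.04), and its beta values, 1.18-fold, did not pass (limma adjusted p = 0.2). Hdac5 had a 1.51-fold range in beta cells with a peak at ZT6.6 ± 1.0 h (limma adjusted p = 0.03), and Sirt1, 1.44-fold, a peak at ZT7.2 ± 1.0 h (limma adjusted p = 0.033). The alpha values of Hdac5 and Sirt1 were 1.24-fold and 1.21-fold and did not pass (limma adjusted p = 0.3 and 0.32). With 12 values, the common cosines of Hdac3, Hdac5 and Sirt1 no longer passed (limma adjusted p = 0.068, 0.083 and 0.08).

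Kat2b had the lowest p for a difference of rhythm. Its beta libraries were highest at ZT4, at 23.0 and 23.6 RPKM, and lowest at ZT16, at 16.6 and 16.9 RPKM, a fitted range of 1.32-fold with a peak at ZT5.4 ± 1.0 h (limma adjusted p = 0.037). The alpha libraries, from 10.3 to 14.4 RPKM, gave 1.12-fold (limma adjusted p = 0.51). The difference did not pass over all genes (limma adjusted p = 0.33). The other members under 0.05 before adjustment were Hdac9, Kdm1b, Sirt2 and Setd7. Kdm5c was called in beta cells, with a 1.37-fold range and a peak at ZT19.0 ± 0.9 h (limma adjusted p = 0.024), but not by the common cosine (limma adjusted p = 0.054).

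Among the members with the largest differences between cell types, Mll1 passed as rhythmic for the common cosine with 24 libraries (limma adjusted p = 0.0035), as given above. Hdac7, Tet1 and Kdm2b did not pass (limma adjusted p = 0.56, 0.85 and 0.86). Neither did Dnmt1 (limma adjusted p = 0.14), Dnmt3b (0.058), Ezh2 (0.6) or Kdm5a (0.12). Dnmt3a, Tet2, Tet3 and Ezh1 passed with 24 libraries, with ranges of 1.42-fold, 1.59-fold, 1.58-fold and 1.26-fold (limma adjusted p = 0.022, 0.007, 0.037 and 0.042), and none of these 4 passed with 12 values (limma adjusted p = 0.13, 0.074, 0.15 and 0.19). With time as a factor in place of the common cosine, Tet1 was among 25 members called (4753 of all genes). Its mean was highest at ZT4, at 4.79 RPKM in alpha and 1.98 in beta cells.

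Promoter windows of 4 genes are shown, because clock factors bind short motifs near gene starts: 3 light-phase members chosen because their window holds a match, and Mll2, without one, beside them. The windows are RefSeq sequences of GRCm38.p6 from 250 bases before to 50 bases after a start, all on the minus strand here and written 5′ to 3′. Capitals mark matches on either strand to the E-box CACGTG, bound by CLOCK and BMAL1, the D-box TTATGTAA, bound by PAR bZIP factors, or the ROR element TAGGTCA, bound by ROR and REV-ERB receptors. These motifs were chosen with the courses known. Hdac9 (1 of its 2 windows) and Sirt1 and Hdac5 peaked in the light, and Mll2 (Kmt2d) in the dark.
Hdac9, chr12:34528840-34529139: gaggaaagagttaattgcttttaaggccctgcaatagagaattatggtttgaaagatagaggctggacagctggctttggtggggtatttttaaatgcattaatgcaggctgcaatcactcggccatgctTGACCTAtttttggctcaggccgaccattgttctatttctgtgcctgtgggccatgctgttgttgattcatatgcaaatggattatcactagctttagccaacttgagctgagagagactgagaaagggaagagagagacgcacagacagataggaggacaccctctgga
Sirt1, chr10:63338986-63339285: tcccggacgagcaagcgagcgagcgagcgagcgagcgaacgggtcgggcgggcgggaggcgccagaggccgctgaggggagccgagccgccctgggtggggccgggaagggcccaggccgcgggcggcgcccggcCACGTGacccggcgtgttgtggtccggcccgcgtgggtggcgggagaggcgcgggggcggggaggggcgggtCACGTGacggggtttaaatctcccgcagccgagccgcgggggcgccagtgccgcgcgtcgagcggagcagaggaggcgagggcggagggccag
Hdac5, chr11:102230123-102230422: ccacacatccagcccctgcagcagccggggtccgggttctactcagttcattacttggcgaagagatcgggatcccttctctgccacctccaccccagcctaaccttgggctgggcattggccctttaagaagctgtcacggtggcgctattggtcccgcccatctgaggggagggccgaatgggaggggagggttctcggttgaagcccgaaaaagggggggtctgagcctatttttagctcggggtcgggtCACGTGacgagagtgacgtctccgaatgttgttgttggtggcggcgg
Mll2, chr15:98871156-98871455: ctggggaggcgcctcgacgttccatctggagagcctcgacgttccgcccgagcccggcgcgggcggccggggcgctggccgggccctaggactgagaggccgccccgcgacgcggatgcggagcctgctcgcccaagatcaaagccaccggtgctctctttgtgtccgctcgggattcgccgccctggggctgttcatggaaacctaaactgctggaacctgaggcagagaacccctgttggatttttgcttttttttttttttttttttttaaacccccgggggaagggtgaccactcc
The Hdac9 window holds a ROR element in the opposite orientation (TGACCTA), 120 bases before the start. Sirt1 holds E-boxes 115 and 43 bases before the start and Hdac5 holds 1 at 3 bases before it, while these letters are not in the Mll2 window. The starts of the Hdac9 and Sirt1 windows lie inside the genes as annotated (34047580 to 34917095 and 63319005 to 63381704), away from their 5′ ends. In all, 70 windows of 48 members were found. An E-box was in 8.57% of them (Dnmt3a, Hdac5, Kat5, Kdm4c, Kdm6a and Sirt1) against 7.15% of the 32851 windows of all genes. A ROR element was in 5.71% (Hdac9, Kdm1a, Kdm4c and Sirt5) against 2.61%, and a D-box in none against 0.94%. Of the E-box members, Dnmt3a was called with a peak in the dark (ZT19.1), and Hdac5 and Sirt1 in the light. Of the ROR element members, Hdac9, Kdm1a and Sirt5 were called with a peak in the light. Kat5, Kdm4c and Kdm6a were not called, and a link of match and phase was not tested. A match of letters is a description of the window and not evidence of binding.

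The members were set beside 97 measured genes of other chromatin lists, which hold the partners of these enzymes and related enzymes outside the name rule. Between cell types 4 of the 97 were called, 2 in each direction, against 20.7% of all genes. Without the fold threshold 43 were higher and 22 lower in alpha cells, against 37.8% and 37.2% of all genes. Gadd45b, a stress-induced gene linked to DNA demethylation, was at 39.2 ± 13.6 RPKM in alpha and 6.54 ± 3.90 in beta cells (6.53-fold, limma adjusted p = 8e-11). Jhdm1d, a JmjC demethylase now named Kdm7a, was at 17.2 ± 1.13 and 8.68 ± 1.60 RPKM (2.01-fold, limma adjusted p = 4.8e-12). The pair higher in beta cells was Paxip1, a partner of MLL2 and MLL3, at 20.5 ± 4.85 against 8.58 ± 0.845 RPKM (2.33-fold, limma adjusted p = 1e-10), and Mbd2, a reader of methylated DNA in the NuRD complex, at 49.6 ± 6.58 against 23.9 ± 1.2 RPKM (2.05-fold, limma adjusted p = 8.6e-14). None of these 4 overlapped between the cell types, as was so for 26% of all genes. For the common cosine 30 of the 97 were called with a peak in the dark (19.2% of all genes) and 9 with a peak in the light (19.7% of all genes). The related histone methyltransferases gave 13 and 2 of 24, the partners of the H3K4 enzymes (COMPASS) 2 and 1 of 10, and the partners of PRC2, the complex of Ezh1 and Ezh2, 2 and 1 of 9.

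Members that peaked in the dark were longer genes. The median gene length behind the RPKM values was 7666 bases for the 22 dark-phase members, 4422 for the 7 light-phase members and 5471 for the 31 not called. Over all genes the medians of these classes were 5152, 3071.5 and 3688.5 bases. The median GC content was 52.4%, 47.4% and 48.5% in the members and 51.2%, 47.8% and 49.6% over all genes. Length and GC moved with the peak phase in all genes as in the members, and their part in the result was not tested.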

How the data were processed

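Total RNA of both cell types went through ribosomal RNA removal into stranded libraries, per the labels' protocols. The authors used STAR, edgeR and the build mm10, per the submitters' processing notes, which give no versions. For the annotation, the strand setting and the gene filter, the answer is not given in the sources used here. Deposited values were log2 RPKM of 14027 genes. From the steps of these values whole reads were recovered for every gene (largest deviation from a whole number 8.1e-08), with a prior count that averages 2.00 reads, which shrinks the log2 differences of genes with few reads. RPKM was computed from these reads without the prior count, and SDs over 12 libraries hold the spread over time points too.

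Tests used limma 3.58.1 in R 4.3.3 on the deposited log2 values, with trend and robust estimation, over all 24 libraries, with Benjamini-Hochberg adjustment over 14027 genes. Cell types were compared with time as a factor of 6 levels. Rhythms were fitted as a 24 h cosine per cell type, as a cosine common to both, and as their difference. The tests were checked on reads simulated independently for each library, with the same setting of spread for all genes. Deviations shared by same-numbered libraries were therefore not covered by that check. Alternatives changed the log scale (log2(RPKM + 1) and log2(RPKM + 0.1)), the filter on low values, the variance model, the scaling, the shape of the rhythm, the replicate block and the libraries used.

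The members, lists and motifs were chosen with earlier results of these data known. Named members were those called (at most 10 by p for the common cosine and in beta cells), the highest of each class, and Dnmt1, Dnmt3a, Dnmt3b, Tet1 to Tet3, Ezh1, Ezh2, Sirt1, Hdac3, Kdm5a and Mll1. Others, such as Kdm2b, Kdm2a, Kdm6a, Kdm6b, Kdm1b, Setd8, Setd2, Setd6, Setd1b, Sirt2, Hdac8, the other called genes and the noncoding RNAs, were named after their values were seen. Identifiers of 59 members matched the GENCODE annotation of GRCm38, which gave positions counted from 1. Some genes may not be reported here.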

Additional observations from a re-analysis of the deposited data

How the results depend on the processing

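No member called between cell types at the fold threshold, in the main fit or in an alternative, reversed its direction under any alternative. The direction of the other members, some with differences near none, was not compared in this way. Between cell types 2 members were called, 1 (Hdac7) on log2(RPKM + 1), 43 without the fold threshold, and 2 to 3 with single libraries left out. All genes called fell from 2903 to 1602 on log2(RPKM + 1). They were 10508 without the fold threshold and 2872 to 2939 with single libraries left out. In alpha cells 4 members were rhythmic (1355 of all genes), and 2 without trend and robust estimation (1167 of all genes). Without both ZT0 libraries numbered 2 there were 8 (1893 of all genes). Leaving out replicate 2 of ZT4 alpha too gave 9 (1202 of all genes). With single libraries left out there were 1 to 12 (348 to 2252 of all genes). With time as a factor, 531 of all genes were called in alpha cells. In beta cells 13 members were rhythmic (2241 of all genes), and 4 with time as a factor (1212 of all genes). Without both ZT0 libraries numbered 2 the beta count was 20 (3132 of all genes). Without those and replicate 2 of ZT4 alpha it was 21 (3116 of all genes). With single libraries left out it was 2 to 21 (1077 to 3100 of all genes). The common cosine called 29 members, 9 with 12 values (1758 of all genes against 5449), and 25 to 33 with single libraries left out (4552 to 6033 of all genes). The difference of rhythm called 0 members in each alternative that tested it, and 10 of all genes, 44 on log2(RPKM + 1) and 4 to 14 with single libraries left out. The cause was not tested, except that fewer values or libraries enter some of these fits.

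Replicate numbers were compared between the cell types: the correlation of the replicate differences over all genes was 0.65 at ZT0, 0.42 at ZT4, 0.34 at ZT8, 0.10 at ZT12, 0.19 at ZT16 and 0.04 at ZT20. The replicates of the cell types deviated together most at ZT0 to ZT8. Pairing was not taken as given, since the labels do not state it and the correlation was not above 0.1 at ZT12 and ZT20, but same-numbered libraries may share a source, and the count with 12 values stands beside that with 24 for this reason. With the replicate block 2 members were called between cell types, 4 in alpha cells, 11 in beta cells, 29 by the common cosine and 0 for the difference. Over all genes these fits called 2903, 1235, 2046, 5330 and 7. A block within time points gave 2 between cell types (2903 of all genes). That block was not run for the difference of rhythm, whose test took the alpha and beta libraries as independent. The planned edgeR and DESeq2 fits were not run, because the deposited unit is log2. Limma voom on the recovered reads, the 12 values, the block within time points and the sets of libraries left out were chosen after seeing the data. Depth limits the members with few reads most, such as Kat2b-ps with as few as 3 reads in a library.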
